A study of Homo sapiens with 12 samples.

Results

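The comparison described here is 48 h of doxorubicin at 170 nM against 48 h of its vehicle, DMSO. The cells are labelled HS578T, a line derived from a triple-negative breast carcinoma. Their 17p (the short arm of chromosome 17) is called intact from their labels. The comparison holds 6 of the 12 libraries of the series, chosen by their labels, and covers the 21803 genes that passed the filter on low counts. The 3 treated and the 3 vehicle libraries share the genotype label WT, and their titles name Cas9, so both groups carry the same Cas9 background without the 17p edit. The other 6 libraries come from cells labelled as having lost 1 copy of 17p (17PKO in the titles), in DMSO or in doxorubicin at 1 µM, also for 48 h. The labels do not say whether either population is a single clone, or whether replicate libraries were grown as separate cultures. The p-values below therefore reflect the spread among these libraries, some or all of which may be technical.

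The intact DMSO libraries held 68064971 to 96798057 counts and the treated ones 81966803 to 99142099. Levels are in CPM, counts per 1e6 after scaling of the library totals by trimmed means of M values. A floor of 3 counts, used for genes without a count, equals 0.0303 to 0.0441 CPM in these 6 libraries. Mesenchymal markers, which the line named in the labels is known to express, were high: the summed level of 9 of them was 10500 to 10900 CPM in DMSO and 9120 to 9370 CPM in doxorubicin. The luminal and epithelial genes *EPCAM*, *CDH1*, *ESR1* and *PGR* lay at or below 0.441 CPM in each of the 6 libraries, and 7 of the 14 genes of that list were under 1 CPM in all of them. Others of the list were expressed: the keratins *KRT8* and *KRT18* were at 251 to 371 and 131 to 188 CPM, *GATA3* at 16.6 to 21.3 CPM, *ERBB3* at 9.89 to 12 CPM and *FOXA1* at 6.65 to 9.24 CPM. A check of the recorded identity of the line did not match in 12 of 12 libraries, so the cells are called only what the labels call them. The treated libraries stood apart from one another. Mitochondrial genes took 5.54% of the counts in treated replicate 1, against 3.57% and 3.16% in replicates 2 and 3 and 2.61% to 3.47% in DMSO. Across genes, the deviation of a treated library from the mean of the treated group followed the GC content of the transcripts. The Spearman rho was -0.442 in treated replicate 1, 0.481 in replicate 2 and -0.162 in replicate 3. The treated libraries share that mean, so these values are not independent of one another. Because of such GC trends, counts at 170 nM are also given from a fit in which the GC trend of every library was removed.

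Doxorubicin is an anthracycline that intercalates into DNA and traps topoisomerase II on cut strands, and the breaks that follow activate checkpoint kinases and p53. Cells held in G2 or mitosis carry high levels of the transcripts of the late cell cycle, many of which are driven through CHR and CCAAT elements by the MuvB complexes and NF-Y. Interferon-stimulated genes encode antiviral proteins, and are switched on through the interferon-stimulated response element (ISRE) by the factor ISGF3, a complex of STAT and IRF proteins. DNA that reaches the cytosol can start that response through the sensor cGAS and its adaptor STING.

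Promoter stretches of 6 genes are shown because the members of both groups that moved together, interferon-stimulated genes and genes of G2 and mitosis, are known for these elements. Each gene passed with the GC trend removed, and each stretch lies upstream of the exons that GENCODE 29 gives for the gene. They are RefSeq sequences of GRCh38, read 5′ to 3′ on the strand of the gene. Capitals mark the core of the ISRE, GAAA and again GAAA with any 2 bases between them, on either strand in *IFIT1*, *IFIT3* and *DDX60*, and TTTGAA (CHR) or CCAAT on either strand in *TOP2A*, *KIF11* and *DLGAP5*.
IFIT1, chr10:89392443-89392545, plus strand: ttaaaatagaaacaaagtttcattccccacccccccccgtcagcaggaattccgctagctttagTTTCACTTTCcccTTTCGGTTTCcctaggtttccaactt
IFIT3, chr10:89332379-89332483, plus strand: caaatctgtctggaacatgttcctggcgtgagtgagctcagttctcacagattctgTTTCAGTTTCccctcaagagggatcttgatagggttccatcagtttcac
DDX60, chr4:168318808-168318902, minus strand: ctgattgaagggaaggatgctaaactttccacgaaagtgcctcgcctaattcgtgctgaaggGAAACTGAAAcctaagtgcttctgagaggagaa
TOP2A, chr17:40417957-40418096, minus strand: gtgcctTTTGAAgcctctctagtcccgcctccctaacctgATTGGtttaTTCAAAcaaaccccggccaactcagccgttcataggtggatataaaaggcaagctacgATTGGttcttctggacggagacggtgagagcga
KIF11, chr10:92593020-92593129, plus strand: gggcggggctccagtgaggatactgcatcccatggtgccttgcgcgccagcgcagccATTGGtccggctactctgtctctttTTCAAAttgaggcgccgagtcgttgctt
DLGAP5, chr14:55191679-55191775, minus strand: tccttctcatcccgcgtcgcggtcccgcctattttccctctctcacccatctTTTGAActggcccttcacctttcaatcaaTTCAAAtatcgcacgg
The *IFIT1* stretch holds the ISRE core at 2 places and the *TOP2A* stretch holds 4 matches, both elements included.

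Windows of 250 bases before to 50 after the start were found for 40 of the 50 interferon-stimulated symbols and 34 of the 41 G2 and mitosis symbols. The ISRE core stood on either strand in a window of 30 of the 40 interferon-stimulated genes (75.0%), against 4.38% of all 27305 genes in the table and 0 of the 34 G2 and mitosis genes. TTTGAA stood in a window of 24 of the 34 G2 and mitosis genes (70.6%), against 18.2% of all genes, and CCAAT in 28 of 34 (82.4%), against 39.7%. A match is a run of letters in this window and says nothing of binding in these cells.

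Few genes passed the test at 170 nM. In edgeR's quasi-likelihood test over the 4 groups of the series, 6 genes were higher in doxorubicin than in DMSO (0.0275% of the genes tested) and 7 were lower (0.0321%), at a Benjamini-Hochberg adjusted p of 0.05. The same edgeR test called 0 genes with only the 2 intact groups fitted, with the replicate number as a block, and when any 1 of 5 of the 6 intact libraries was left out (all but treated replicate 2). At an unadjusted p of 0.05, 1458 genes were higher and 1046 lower, 11.5% of the genes tested. With the GC trend removed, 252 genes were higher (1.16%) and 143 lower (0.656%), and these included the 13 genes above in the same direction. DESeq2 called 253 higher and 214 lower, and shared 260 of the 395 calls made with the GC trend removed. The changes were small: 14 of those 395 genes passed a 2-fold change, and the median size of the log2 fold change was 0.41 among the higher and 0.50 among the lower ones.

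Of the 6 genes that rose, 4 were interferon-stimulated. *MX2*, whose product blocks nuclear import of retroviral DNA (ENSG00000183486.13, chromosome 21, 41361943 to 41409390, hg38), was at 11.7, 11.2 and 11.6 CPM in DMSO and 20.7, 19.9 and 19.1 CPM in doxorubicin. All treated libraries lay above all vehicle libraries, with means of 11.5 ± 0.266 and 19.9 ± 0.772 CPM (SD, n = 3). The log2 fold change was 0.80, SE 0.09 (edgeR adjusted p = 0.00965). *MX1*, its neighbour and a GTPase active against influenza virus (ENSG00000157601.14, chromosome 21, 41420304 to 41459214), was at 42.2, 42.2 and 42.3 CPM in DMSO and 70.0, 66.7 and 70.2 CPM in doxorubicin. The spread within each group was far below the distance between them, and the log2 fold change was 0.71, SE 0.08 (edgeR adjusted p = 0.00965).

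*OAS2*, an oligoadenylate synthetase that activates RNase L (ENSG00000111335.13, chromosome 12, 112978395 to 113011723), was at 19.1, 20.8 and 20.3 CPM in DMSO and 33.9, 30.4 and 34.5 CPM in doxorubicin. It had a log2 fold change of 0.71, SE 0.10 (edgeR adjusted p = 0.0368). *IFIT1*, which binds viral RNA lacking cap methylation (ENSG00000185745.10, chromosome 10, 89392546 to 89406486), was at 61.9, 57.2 and 63.7 CPM in DMSO and 95.2, 89.6 and 90.8 CPM in doxorubicin. Its log2 fold change was 0.59, SE 0.09 (edgeR adjusted p = 0.0445), and neither gene's groups overlapped. The 2 other genes that rose belong to no interferon list. *ZNF385A*, a zinc finger protein that binds p53 and RNA (ENSG00000161642.18, chromosome 12, 54369133 to 54391298), was at 22.6, 22.9 and 23.9 CPM in DMSO and 32.9, 33.8 and 31.6 CPM in doxorubicin. *FAM117A* (ENSG00000121104.8, chromosome 17, 49710332 to 49789180) was at 5.99, 6.51 and 6.25 CPM in DMSO and 11.8, 11.3 and 9.43 CPM in doxorubicin. The log2 fold changes were 0.50, SE 0.08 for *ZNF385A* (edgeR adjusted p = 0.0472) and 0.79, SE 0.12 for *FAM117A* (edgeR adjusted p = 0.0398).

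**Figure D1:**
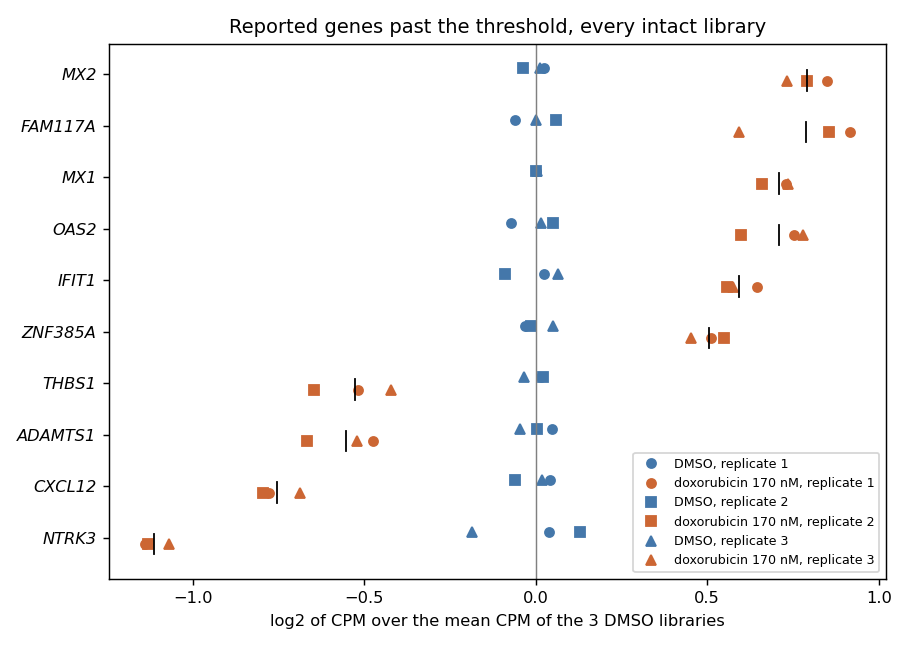
Log2 of the CPM of each intact library over the mean of the 3 DMSO libraries (x axis), for 10 of the 13 genes past the threshold (y axis); blue symbols are DMSO, orange symbols doxorubicin at 170 nM, shapes are replicate numbers and black bars the treated means. The treated libraries of these 10 genes lie to one side of their DMSO libraries; *LCE1C*, at 0 counts in doxorubicin, is not drawn.

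Across the interferon-stimulated list as a whole, 48 of 50 genes were tested and 47 had a positive log2 fold change, with a median of 0.37 against 0.01 for all genes tested. Of the 48, 4 passed the edgeR test and 17 passed with the GC trend removed, all of them higher. Over all genes tested 0.0275% and 1.16% passed higher in these fits. For 27 of the 48, all 3 treated libraries lay above the 3 DMSO libraries and for 0 they lay below, against 10.7% and 8.67% of all genes. The median deviation of the list from the DMSO mean was 0.41, 0.37 and 0.43 in treated replicates 1, 2 and 3, on a log2(CPM + 0.5) scale. The median deviation lay between -0.02 and 0.03 in the DMSO libraries. Treated replicate 1 had the highest mitochondrial share of the intact libraries, and replicate 2 a GC trend opposite to that of replicates 1 and 3. Their part in the level of the list was not tested. Over the 25 other settings listed in the closing section the median of the list ran from 0.30 to 0.44, and the number of its genes that passed from 0 to 28, all higher. With the GC trend removed, the 17 became 6, 6 and 7 without DMSO replicates 1, 2 and 3, 9, 21 and 10 without treated replicates 1, 2 and 3, and 11 both with only the intact groups fitted and with the replicate block.

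The members that passed with the GC trend removed covered several arms of the response. *IFIT2* and *IFIT3*, relatives of *IFIT1*, went from 69.3 to 114 CPM and from 78.5 to 117 CPM, with log2 fold changes with the GC trend removed of 0.67 and 0.54 (edgeR adjusted p = 0.00739 and 0.00438). *OAS1* and *OAS3*, the other synthetases of that family, went from 14 to 22 CPM and from 151 to 209 CPM (adjusted p = 0.0275 and 0.00622 in the same edgeR fit). *RIGI*, a cytosolic sensor of viral RNA, was at 45.9, 45.5 and 46.8 CPM in DMSO and 82.5, 61.4 and 70.2 CPM in doxorubicin (0.58 with the GC trend removed, edgeR adjusted p = 0.0127). *XAF1*, an interferon-induced antagonist of inhibitors of apoptosis, was at 16.6, 18.7 and 19.8 CPM in DMSO and 36.5, 26.8 and 30.5 CPM in doxorubicin (0.73 with the GC trend removed, edgeR adjusted p = 0.0465). In both of these genes treated replicate 1 was the highest and replicate 2 the lowest of the treated libraries.

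Not all members moved. *ISG15*, a ubiquitin-like modifier, was at 33.8, 29.8 and 34.2 CPM in DMSO and 19.0, 54.7 and 27.2 CPM in doxorubicin, so that treated replicate 2 lay above and replicates 1 and 3 below every vehicle library (0.04, SE 0.33, edgeR adjusted p = 0.98). *IFI6*, a mitochondrial antiviral protein, had the same layout, with treated replicate 2 at 155 CPM, replicates 1 and 3 at 80.9 and 90.0 CPM and DMSO at 91.0 to 99.5 CPM. *GBP1*, a guanylate-binding protein, averaged 45.1 CPM in the vehicle libraries and 44.9 CPM in the treated ones. Among 19 interferon receptors, STAT and IRF factors, 0 passed in edgeR and 2 passed with the GC trend removed, among them *IRF7*, a factor that amplifies interferon production. Among 13 genes of cytosolic nucleic acid sensing 0 passed in edgeR and 1 passed with the GC trend removed: *SAMHD1*, a dNTP hydrolase, went from 117 to 150 CPM (0.33, edgeR adjusted p = 0.0285). *CGAS* and *STING1* averaged 30.3 and 56.9 CPM in vehicle and 33.0 and 65.3 CPM in treated libraries, and did not pass in either fit. Of 20 antigen presentation genes 0 passed in either fit. In edgeR 0.0275% of all genes rose and 0.0321% fell, and with the GC trend removed 1.16% rose and 0.656% fell.

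Genes of G2 and mitosis did not pass one by one in the first fit, and many passed once the GC trend was removed. All 41 genes of the list had a positive log2 fold change, from 0.03 to 0.72 with a median of 0.36. In edgeR 0 of the 41 passed, and with the GC trend removed 20 passed, all higher, against 1.16% of all genes. DESeq2 called 15. The 20 became 1, 3 and 6 without DMSO replicates 1, 2 and 3, 9, 23 and 12 without treated replicates 1, 2 and 3, 4 with only the intact groups fitted and 9 with the replicate block, all with the GC trend removed. Over the same 25 other settings as above the number that passed ran from 0 to 31, all higher, and the median of the list from 0.29 to 0.39. For 30 of 41 all treated libraries lay above all DMSO libraries, and for 0 below, against 10.7% and 8.67% of all genes. The median deviation of the list was 0.43, 0.27 and 0.36 in treated replicates 1, 2 and 3 and -0.03 to 0.03 in DMSO. In bulk RNA a larger share of cells in G2 or mitosis and more of these transcripts per cell cannot be told apart.

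*TOP2A*, which encodes the topoisomerase that doxorubicin poisons (ENSG00000131747.15, chromosome 17, 40388516 to 40417950), was at 948, 966 and 938 CPM in DMSO and 1440, 1230 and 1410 CPM in doxorubicin. It lay just outside the threshold in edgeR (0.52, SE 0.09, adjusted p = 0.0588) and inside it with the GC trend removed (0.47, SE 0.07, edgeR adjusted p = 0.00438). *AURKA*, the kinase of centrosomes and spindle poles (ENSG00000087586.18, chromosome 20, 56369389 to 56392337), was at 205, 197 and 204 CPM in DMSO and 275, 293 and 260 CPM in doxorubicin. It had a log2 fold change of 0.45, SE 0.08 (edgeR adjusted p = 0.0525), and 0.44 with the GC trend removed (edgeR adjusted p = 0.00622). *CCNB2*, a mitotic cyclin, went from 97.3 to 134 CPM and *CDC25C*, the phosphatase that activates CDK1, from 24.4 to 33.5 CPM, both past the threshold with the GC trend removed (edgeR adjusted p = 0.0275 and 0.00979).

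The kinesin *KIF11* and the spindle protein *DLGAP5*, whose promoters are shown above, went from 244 to 321 CPM and from 290 to 380 CPM, and passed with the GC trend removed (edgeR adjusted p = 0.0178 and 0.0255). *HMMR*, a spindle-assembly protein with the largest log2 fold change of the list, was at 149, 149 and 160 CPM in DMSO and 315, 184 and 256 CPM in doxorubicin, a wide spread among treated libraries (0.72, SE 0.22, edgeR adjusted p = 0.227; 0.65 and 0.0146 with the GC trend removed). *PLK1*, a mitotic kinase, was at 180, 178 and 185 CPM in DMSO and 251, 248 and 216 CPM in doxorubicin. *CCNA2* and *CDC20*, a cyclin and an activator of the anaphase-promoting complex, overlapped between the groups and did not pass in either fit. The genes of the preceding phase did not share the direction. Of 45 G1/S and replication genes 16 had a positive log2 fold change, the median was -0.04, and with the GC trend removed 1 passed, *MCM5* of the replicative helicase, which fell from 167 to 132 CPM (-0.27, edgeR adjusted p = 0.0372). Over all genes 0.656% fell in that fit. Of 46 replication-dependent histone genes 0 passed in either fit.

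**Figure D2:**
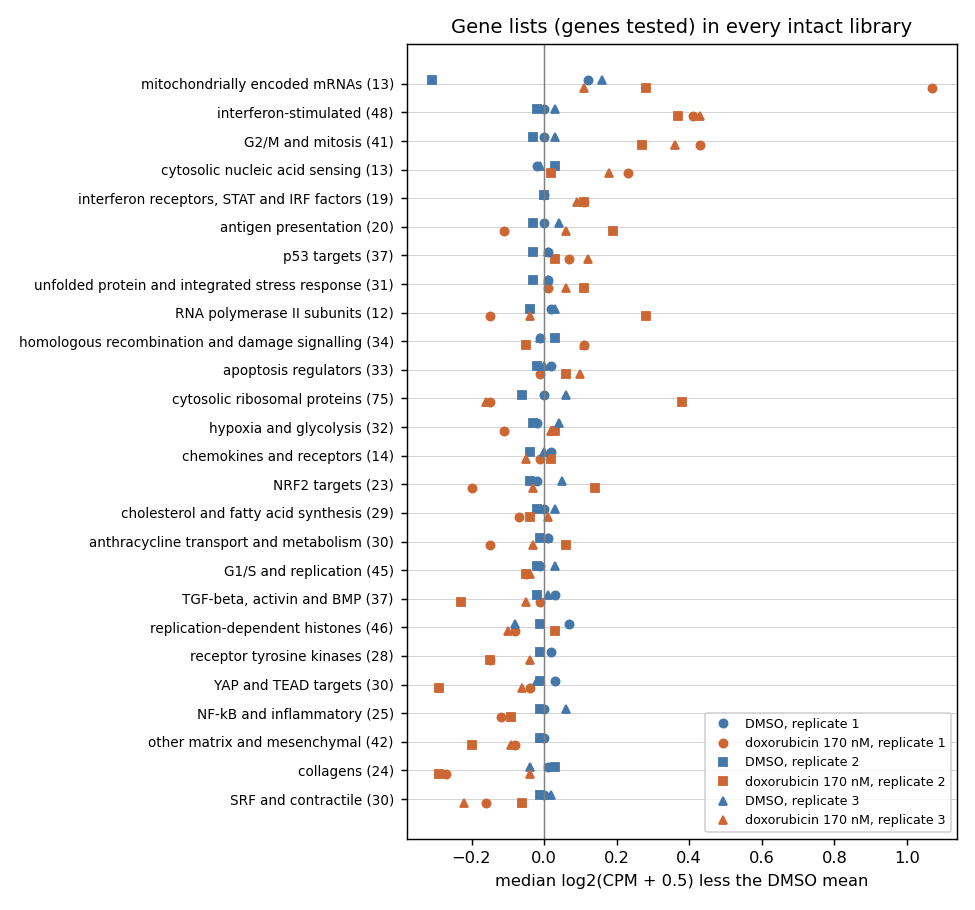
Median deviation from the mean of the DMSO libraries, in log2(CPM + 0.5), of each gene list (y axis, with genes tested) in the 6 intact libraries; colours are treatments and shapes replicate numbers. The 3 treated libraries sit together to the right of the DMSO libraries for the interferon-stimulated (0.37 to 0.43) and the G2/M lists (0.27 to 0.43), and are scattered for mitochondrial mRNAs (0.11 to 1.07) and ribosomal proteins (-0.16 to 0.38); DMSO libraries are close to 0 because their own mean is the reference.

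Few p53 targets passed at this dose, where few genes passed at all. Of 37 p53 targets tested, 0 rose in edgeR, 1 fell, and the median log2 fold change was 0.09. Over all genes tested 0.0275% rose and 0.0321% fell in that fit, so 0 calls say little about this list. DESeq2 called 3 higher and 1 lower, and limma-voom with quality weights 8 and 3. All treated libraries lay above all DMSO libraries for 7 of the 37 and below for 3, against 10.7% and 8.67% of all genes. *CDKN1A*, the inhibitor of cyclin-dependent kinases that p53 induces, was at 62.7, 65.0 and 72.0 CPM in DMSO and 63.2, 88.5 and 79.8 CPM in doxorubicin, where replicate 1 lay among the vehicle libraries. *MDM2*, the ubiquitin ligase of p53, was at 119, 118 and 114 CPM in DMSO and 137, 93.6 and 143 CPM in doxorubicin, with replicate 2 below all vehicle libraries. With the GC trend removed 2 targets passed higher, against 1.16% of all genes. The 2 became 0, 0 and 1 without DMSO replicates 1, 2 and 3. They became 1, 5 and 1 without treated replicates 1, 2 and 3. *BTG2*, an antiproliferative gene, was at 12.3, 11.4 and 12.8 CPM in DMSO and 15.6, 16.9 and 16.2 CPM in doxorubicin (0.42, SE 0.08, edgeR adjusted p = 0.0140). *SESN2*, a stress-induced inhibitor of mTORC1, went from 14.6 to 18.9 CPM (0.46, edgeR adjusted p = 0.0220).

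Of the 7 genes that fell, 5 are described here, and 4 of these encode secreted or receptor proteins of the matrix and of cell signalling. *THBS1*, an adhesive matrix glycoprotein that activates latent TGF-beta (ENSG00000137801.11, chromosome 15, 39581079 to 39599466), was at 419, 421 and 405 CPM in DMSO and 290, 265 and 310 CPM in doxorubicin (-0.53, SE 0.08, edgeR adjusted p = 0.0368). Every treated library lay below every vehicle library. *ADAMTS1*, a secreted protease that cleaves proteoglycans (ENSG00000154734.16, chromosome 21, 26835747 to 26845409), was at 60.8, 59.0 and 57.0 CPM in DMSO and 42.4, 37.1 and 41.0 CPM in doxorubicin (-0.55, SE 0.09, edgeR adjusted p = 0.0445).

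*CXCL12*, the chemokine ligand of CXCR4 (ENSG00000107562.16, chromosome 10, 44370165 to 44386493), was at 17.4, 16.2 and 17.1 CPM in DMSO and 9.85, 9.73 and 10.5 CPM in doxorubicin. *NTRK3*, the receptor of neurotrophin 3 (ENSG00000140538.16, chromosome 15, 87859751 to 88256768), was at 6.31, 6.72 and 5.41 CPM in DMSO and 2.79, 2.81 and 2.93 CPM in doxorubicin. *NTRK3* had the largest change of a gene with counts in both groups among the 13, at -1.11, SE 0.17 (edgeR adjusted p = 0.0368). *LCE1C*, a late cornified envelope gene (ENSG00000197084.5, chromosome 1, 152804835 to 152806628), had 6, 4 and 10 counts in DMSO and 0 in each treated library, at least 7.12-fold lower when 3 counts over the treated group are taken as the floor. The intact libraries alone were too low in *LCE1C* to pass the filter on low counts. It entered the test only through the cells labelled deleted, so its call is not support for a response in intact cells.

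The lists that hold these genes moved little as wholes. Of 30 YAP and TEAD targets, genes that respond to cell shape and adhesion, 1 fell in edgeR and 5 with the GC trend removed, 0 rose, and the median was -0.12. Over all genes tested 0.0321% and 0.656% fell in these fits. *FJX1*, a target of this pathway (ENSG00000179431.7, chromosome 11, 35618419 to 35620868), was at 42.0, 40.8 and 40.7 CPM in DMSO and 19.0, 28.0 and 21.9 CPM in doxorubicin (-0.71, SE 0.07, edgeR adjusted p = 0.000673 with the GC trend removed). *IGFBP3*, which binds insulin-like growth factors, and *EDN1*, the precursor of endothelin 1, fell in the same fit, by 0.55 and 0.68 on the log2 scale (edgeR adjusted p = 0.0087 and 0.0317). *CCN1* and *CCN2*, matricellular genes often read as reporters of YAP, did not pass in either fit, at 307 and 94.3 CPM in DMSO and 284 and 73.3 CPM in doxorubicin. The median deviation of the list was -0.29 in treated replicate 2 and -0.04 and -0.06 in replicates 1 and 3. With the GC trend removed, the count of 5 became 1, 4 and 2 without DMSO replicates 1, 2 and 3. It became 5, 5 and 3 without treated replicates 1, 2 and 3.

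Of 37 TGF-beta, activin and BMP genes 0 passed in edgeR, and with the GC trend removed 5 fell and 0 rose. Over all genes tested 0.656% fell and 1.16% rose in that fit. The 5 were 3 ligand genes, 1 antagonist and 1 inhibitory SMAD, and the median of the list was -0.06. The count of 5 became 2, 3 and 2 without DMSO replicates 1, 2 and 3. It became 3, 4 and 4 without treated replicates 1, 2 and 3. The median deviation of the list was -0.01, -0.23 and -0.05 in treated replicates 1, 2 and 3. *INHBA*, the subunit of activin A (ENSG00000122641.11, chromosome 7, 41667168 to 41705834), was at 31.3, 29.5 and 33.4 CPM in DMSO and 20.9, 17.9 and 20.3 CPM in doxorubicin (-0.72, SE 0.09, edgeR adjusted p = 0.00345 with the GC trend removed). *INHBB*, the subunit of activin B, fell from 7.75 to 4.45 CPM and *TGFB2* from 15.9 to 9.86 CPM (edgeR adjusted p = 0.0338 and 0.0198 in that fit). The BMP antagonist *GREM1* was at 151, 139 and 154 CPM in DMSO and 113, 92.5 and 110 CPM in doxorubicin (-0.54, SE 0.07, edgeR adjusted p = 0.00345 with the GC trend removed). *SMAD6*, an inhibitory SMAD, fell from 20.9 to 14.4 CPM (edgeR adjusted p = 0.0128 in that fit), and *SMAD3*, a signal-transducing SMAD, was at 172 and 161 CPM and did not pass.

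Matrix and cytoskeletal genes leaned the same way with few calls, and not to a like extent in every treated library. Of 42 matrix and mesenchymal genes other than collagens 1 fell in edgeR, and 4 fell with the GC trend removed: *THBS1*, *THBS2*, the collagen cross-linking enzyme *LOX* and the caveolar coat gene *CAV1*. Over all genes tested 0.0321% and 0.656% fell in these fits. With the GC trend removed, the count of 4 became 0, 3 and 3 without DMSO replicates 1, 2 and 3. It became 5, 5 and 4 without treated replicates 1, 2 and 3. *CAV1* was at 646, 618 and 649 CPM in DMSO and 490, 401 and 469 CPM in doxorubicin (-0.51, SE 0.09, edgeR adjusted p = 0.0087 with the GC trend removed). Of 24 collagen genes 0 passed in either fit. In 11 of them all treated libraries lay below all DMSO libraries (8.67% of all genes) and in 0 above (10.7%). The median deviation of the collagens was -0.27, -0.29 and -0.04 in treated replicates 1, 2 and 3. It was -0.04 to 0.03 in DMSO, so the median of treated replicate 3 lay within that range. *COL1A1*, the main chain of type I collagen, was at 2290, 2370 and 2280 CPM in DMSO and 1810, 2050 and 1890 CPM in doxorubicin, and its log2 fold change went from -0.27 to -0.15 when the GC trend was removed. Of 30 contractile genes and targets of SRF, 0 passed in edgeR, and the smooth muscle actin *ACTG2* and the tropomyosin *TPM1* fell with the GC trend removed (-0.67 and -0.38, edgeR adjusted p = 0.0067 and 0.0381). The summed mesenchymal markers, which include *CAV1* and *COL1A1*, were also lower in treated libraries (9120 to 9370 CPM) than in DMSO (10500 to 10900 CPM), and their part in these results was not tested.

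The other treated group of the series received 1 µM in cells labelled with 1 copy of 17p. Dose and genotype change together between the treated groups, so what either contributes cannot be told apart, and doses in the same cells were not measured. There 3822 genes were higher than in their own DMSO libraries (17.5% of those tested) and 2862 lower (13.1%). The median size of the log2 fold change over all genes was 0.375, against 0.19 at 170 nM. In replicate 2 of the deleted DMSO libraries, mitochondrial genes took 6.90% of the counts, against 2.68% and 3.34% in replicates 1 and 3. That library is part of the baseline of every effect at 1 µM and of every difference. The difference between the effects, 1 µM less 170 nM, passed for 2235 genes in the positive direction (10.3%) and 1470 in the negative (6.74%). Of the 252 genes higher at 170 nM with the GC trend removed, 122 were also higher at 1 µM in that same fit, 50 were lower there and 80 did not pass. Of the 143 lower genes, 78 were also lower at 1 µM in that fit, 33 were higher and 32 did not pass. The shares of all genes given above for 1 µM come from the fit without GC removal, so they are not a matching background. Across genes the log2 fold changes of both treatments had a Spearman rho of 0.085, a description over genes that share libraries and are not independent replicates.

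Interferon-stimulated genes moved in the same direction in both, and further at 1 µM. Of the 48, 40 were higher and 1 lower at 1 µM, with a median of 1.11, and the difference passed for 26 in the positive direction and 1 in the negative. *MX2* rose by 2.81 on the log2 scale at 1 µM, with a difference of 2.02, SE 0.13 (edgeR adjusted p = 2.53e-07). Its vehicle level differed between the populations: it stood at 11.5 CPM in intact and 3.24 CPM in deleted cells in DMSO, and at 19.9 and 22.8 CPM in doxorubicin. *OAS2* also had a lower vehicle level in deleted cells, at 20.1 CPM in intact and 3.19 CPM in deleted cells in DMSO. In doxorubicin it stood at 32.9 and 26.8 CPM, so unlike *MX2* it remained lower in deleted cells (difference 2.35, SE 0.15, edgeR adjusted p = 2.27e-07). For *IFIT1* the difference was 0.31, SE 0.13, and did not pass (edgeR adjusted p = 0.138).

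Genes of G2 and mitosis moved in opposite directions. At 1 µM 33 of the 41 were lower and 0 higher, with a median of -0.86, and the difference passed in the negative direction for 34. *AURKA* was at 276 CPM in intact cells at 170 nM and at 62.1 CPM in deleted cells at 1 µM, from 202 and 235 CPM in DMSO, and the difference was -2.37, SE 0.11 (edgeR adjusted p = 1.57e-08). *TOP2A* went from 1140 to 735 CPM at 1 µM, with a difference of -1.15, SE 0.13 (edgeR adjusted p = 4.26e-05). The p53 targets differed from both lists: 35 of 37 were higher at 1 µM with a median of 2.11, and the difference passed for 35. *CDKN1A* was at 1230 CPM at 1 µM, against 77.2 CPM at 170 nM (difference 3.87, SE 0.25, edgeR adjusted p = 2.47e-07).

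**Figure D3:**
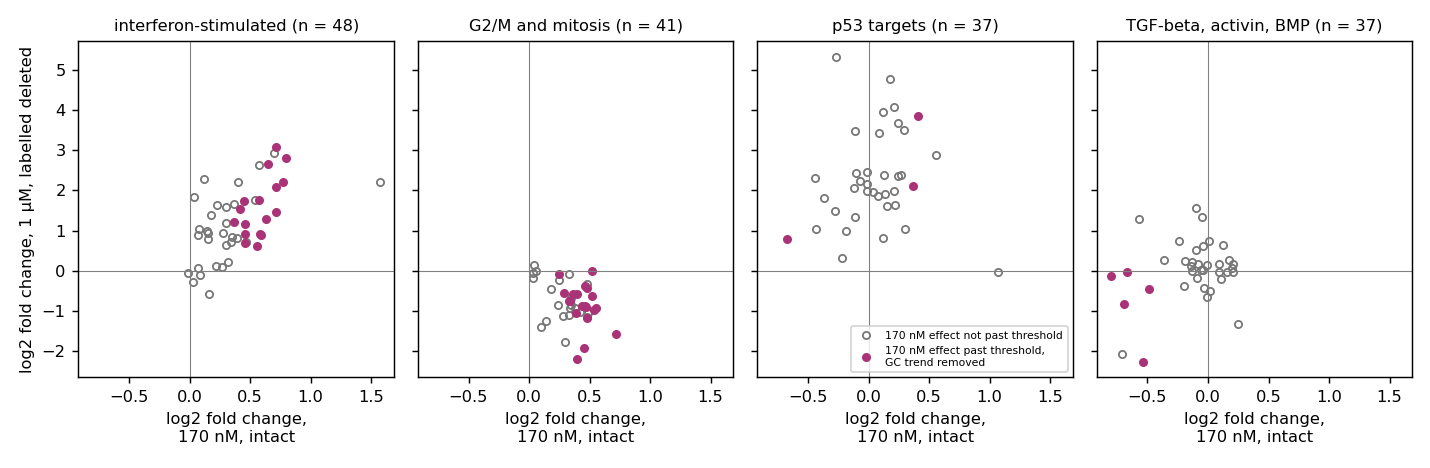
Log2 fold change at 170 nM in intact cells (x axis) against that at 1 µM in cells labelled deleted (y axis), each over its own DMSO libraries, for the members of 4 gene lists; filled points passed at 170 nM with the GC trend removed. Interferon-stimulated genes lie mostly at positive values on both axes, G2/M genes at positive values for 170 nM and mostly negative ones for 1 µM, and p53 targets high on the 1 µM axis (median 2.11) and near 0 at 170 nM (median 0.09).

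Some of the genes that fell at 170 nM rose at 1 µM. *ADAMTS1* went from 16.2 to 20.6 CPM at 1 µM (difference 0.90, SE 0.12, edgeR adjusted p = 0.000191). *CAV1* rose there from 250 to 595 CPM (difference 1.74, SE 0.15, edgeR adjusted p = 3.72e-06). By contrast *THBS1* fell at both, to 140 CPM from 227 CPM at 1 µM, with a difference of -0.17, SE 0.11 that did not pass (edgeR adjusted p = 0.318). *NTRK3* also fell at both (difference -0.26, SE 0.25, edgeR adjusted p = 0.525), from 1.49 to 0.571 CPM at 1 µM. *CXCL12* and *INHBA* were much lower in deleted cells before treatment, at 0.803 and 3.67 CPM in DMSO, and did not pass at 1 µM. *FAM117A* rose at 170 nM and fell at 1 µM, with a difference of -1.36, SE 0.17 (edgeR adjusted p = 9.47e-05).

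The remaining lists showed few calls, as did the genes tested as a whole. In edgeR 0 genes passed among 33 apoptosis regulators, 25 NF-kB and inflammatory genes, 34 genes of homologous recombination and damage signalling, 23 NRF2 targets, 31 genes of the unfolded protein and integrated stress responses, 29 lipid synthesis genes, 32 hypoxia and glycolysis genes and 75 ribosomal protein genes. Over all genes tested 0.0275% rose and 0.0321% fell in edgeR, so 0 calls say little about these lists. With the GC trend removed, where 1.16% of all genes rose and 0.656% fell, 2 of the NF-kB list rose, 1 rose in each of the apoptosis, stress response and hypoxia lists, 1 rose and 1 fell in the lipid synthesis list, and 0 passed in the other 3. In that fit the apoptosis kinase *RIPK1* went from 48.5 to 60.8 CPM, the adhesion receptor *ICAM1* from 23.6 to 29.9 CPM and the hypoxia-induced *NDRG1* from 18.5 to 25.9 CPM (edgeR adjusted p = 0.0381, 0.0325 and 0.0243). Among 28 receptor tyrosine kinases, *MERTK*, which recognises phosphatidylserine on dying cells through bridging ligands, was at 4.53, 4.40 and 4.25 CPM in DMSO and 7.36, 6.72 and 6.38 CPM in doxorubicin (0.63, SE 0.14, edgeR adjusted p = 0.0149 with the GC trend removed). Among 30 genes of anthracycline transport and metabolism *XDH*, encoding xanthine dehydrogenase, fell from 4.57 to 3.25 CPM (edgeR adjusted p = 0.0419 in that fit).

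How many genes passed depended on the libraries. Without treated replicate 2, edgeR called 60 genes higher and 21 lower, and without any 1 of the other 5 intact libraries it called 0, with 1626 to 2274 genes at an unadjusted p of 0.05. Without replicate 2 of the deleted DMSO group, whose counts enter the filter and the shared estimate of the spread, 113 were higher and 107 lower, of 22686 genes tested. With the GC trend removed as well, leaving out any 1 of the 6 intact libraries left 12 to 698 genes higher and 11 to 183 lower. When the genes were split into 5 equal bins by GC content, in the lowest bin the median deviation was 0.17, -0.13 and 0.12 in treated replicates 1, 2 and 3, and in the highest bin -0.22, 0.10 and -0.10. Replicate 2 thus ran against replicates 1 and 3 along GC content.

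**Figure D4:**
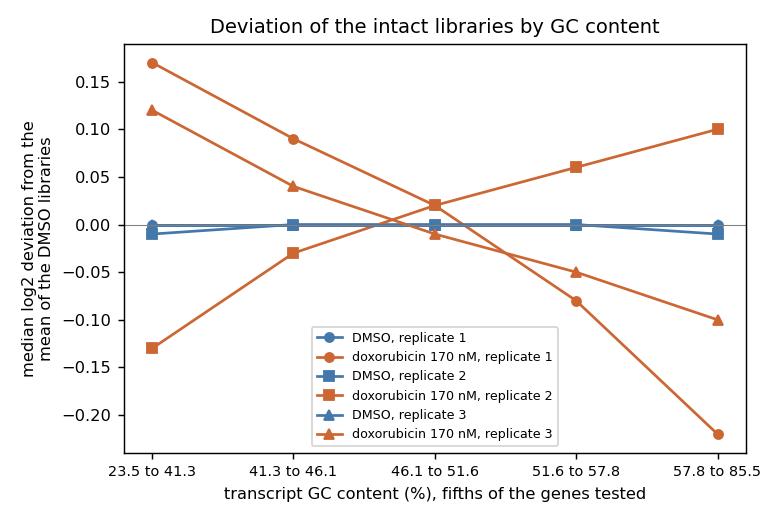
Median log2 deviation from the mean of the DMSO libraries (y axis) in 5 equal bins of the genes by transcript GC content in percent (x axis), 1 line per intact library. Treated replicates 1 and 3 go from 0.17 to -0.22 and from 0.12 to -0.10, replicate 2 climbs from -0.13 to 0.10, and the DMSO libraries, which are their own reference, stay between -0.01 and 0.00.

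**Figure D5:**
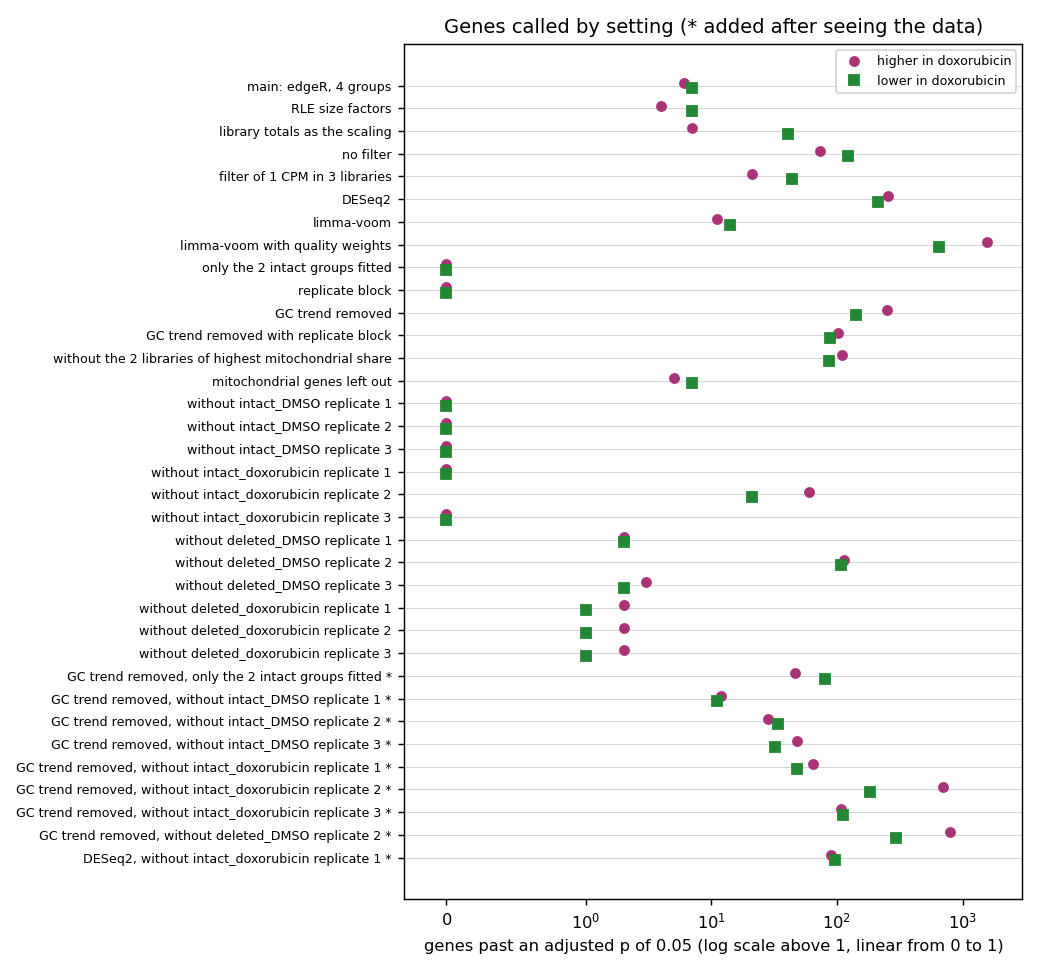
Number of genes higher (circles) and lower (squares) in 170 nM doxorubicin past an adjusted p of 0.05 (x axis, logarithmic above 1 and linear from 0 to 1) under each setting (y axis). The count runs from 0 in both directions, with only the intact groups fitted among others, to 1563 higher and 648 lower with limma-voom quality weights.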

How the data were processed

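RNA from 12 libraries in 4 groups of 3 was compared; the 6 intact libraries carry the comparison. The authors deposited a table of raw counts for each gene. Per the submitters' processing notes, bcl2fastq, STAR 2.7.9a and featureCounts of Subread 2.0.1 were used with hg38; the sources used here give neither the annotation release nor the strand setting, so overlapping and antisense genes and near-identical copies are uncertain. GENCODE 29 gave a position for 58429 of the 60660 identifiers.

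Low counts were removed with filterByExpr, TMM factors were computed, and genes were tested with edgeR 4.0.16 (R 4.3.3) in 1 quasi-likelihood fit of the 4 groups, with Benjamini-Hochberg adjustment over 21803 genes and a threshold of 0.05. The groups in the fit share 1 estimate of the spread. The SE is the size of the log2 fold change over the root of F. The GC trend of each library was removed with loess offsets (span 0.5) of its deviation from the gene means over the 12 libraries; this also removes a GC trend shared by a group. For 98.0% of these genes GC content was available. limma 3.58.1 and DESeq2 1.42.0 were alternatives; the fit was tested on simulated counts.

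No pair of libraries in a group agreed within sampling noise (chi-square over its degrees of freedom 8.42 to 204), so none was counted as a duplicate. Library depths are given in the results; floors cover counting error only. Lists are described by counts and medians, with no set test, and several hold genes that another list holds.

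The members, 26 gene lists, 5 marker lists and alternatives were chosen with earlier results of these data known. Named were 4 fixed genes (*CDKN1A*, *MDM2*, *TOP2A*, *POLR2A*), every gene past the threshold, the 4 members of lowest p and the most abundant member of each list, and the 12 largest and 12 smallest log2 fold changes with the GC trend removed among genes past that threshold, with no overlap and 5 CPM in the higher group. Not all are given, and some genes that passed are not reported here. *IFIT3*, *DDX60*, *OAS1*, *OAS3*, *RIGI*, *ISG15*, *IFI6*, *GBP1*, *IRF7*, *CGAS*, *KIF11*, *DLGAP5*, *HMMR*, *PLK1*, *CCNA2*, *CDC20*, *SMAD6*, *CCN1* and *CCN2* are outside that rule and were chosen after their values were seen.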

Additional observations from a re-analysis of the deposited data

Results flagged for a closer look

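For 10 of the 15 reported genes that were listed by name in the rule for named genes or passed the threshold at 170 nM, the doxorubicin effect differed between the cells labelled intact (170 nM) and those labelled deleted (1 µM), by the difference term of the edgeR fit, adjusted over all genes tested. Dose and genotype cannot be told apart in this difference. The effect was more positive at 1 µM for *MDM2* (adjusted p = 1.69e-07 in edgeR), *ZNF385A* (2.11e-07), *OAS2* (2.27e-07), *CDKN1A* (2.47e-07), *MX2* (2.53e-07) and *MX1* (3.08e-06). It was more positive for *ADAMTS1* (0.000191 in edgeR), which fell at 170 nM and rose at 1 µM, and for *LCE1C* (1.96e-06), which was at 0 counts at 170 nM and at 5.23 CPM at 1 µM. *LCE1C* passed the filter on low counts only through the cells labelled deleted, so its difference was bound to the group where it is high. The effect was more negative at 1 µM for *TOP2A* (4.26e-05) and *FAM117A* (9.47e-05 in edgeR). *IFIT1*, *THBS1*, *NTRK3*, *CXCL12* and *POLR2A* did not pass, which does not show that they respond alike. Over the 160 named genes the difference passed for 75. Over all genes tested it passed for 10.3% in the positive and 6.74% in the negative direction. Many named genes were chosen for a low p or a large change, so their share is not comparable with that of all genes.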

How the results depend on the processing

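The counts of 6 higher and 7 lower genes moved with most settings. They were 4 and 7 with RLE size factors, 7 and 41 with library totals, 73 and 123 with no filter, 21 and 44 with a filter of 1 CPM in 3 libraries, 253 and 214 with DESeq2, 11 and 14 with limma-voom, and 1563 and 648 with quality weights. They were 252 and 143 with the GC trend removed, 109 and 86 without the 2 libraries of highest mitochondrial share, and 5 and 7 with mitochondrial genes left out. Those 2 libraries were treated replicate 1 (5.54%) and deleted DMSO replicate 2 (6.90%). Leaving out only the first gave 0 and 0, and leaving out only the second gave 113 and 107. Library totals moved the median of all genes from 0.007 to -0.066. Fitting only the 2 intact groups in edgeR left 0 and 0, with 2215 genes at an unadjusted p of 0.05, and 46 and 80 with the GC trend removed. Leaving out 1 library at a time gave 0 to 113 higher and 0 to 107 lower, and, with the GC trend removed (added after seeing the data), 12 and 11, 28 and 34, and 48 and 32 without DMSO replicates 1, 2 and 3, 65 and 48, 698 and 183, and 107 and 112 without treated replicates 1, 2 and 3, and 788 and 295 without deleted DMSO replicate 2, the only deleted library left out in that fit. DESeq2 without treated replicate 1, added likewise, called 90 and 96. The number of genes whose effects differ was 3705 and ran from 2700 to 5192 over its alternatives.

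Same-numbered DMSO and treated libraries had correlations of deviations from their group means of -0.0593, -0.082 and -0.0736. Differently numbered ones had -0.0137 to 0.0776. These values give no sign of pairing by number, but cannot show that same-numbered libraries were grown or processed apart. The replicate block gave 0 higher and 0 lower (2050 genes at an unadjusted p of 0.05), and with the GC trend removed about 1.0e+02 and 88.

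Among the described genes 5 turned their direction under some setting, and none of the 5 had passed in edgeR. *ISG15* was at -0.02 with library totals, -0.1 with limma-voom and -0.3 with quality weights, and ran from -0.5 to 0.32 when 1 library was left out. *IFI6* was at -0.06 with quality weights and ran from -0.17 to 0.35. *GBP1* ran from -0.07 to 0.03, *CDC20* from -0.07 to 0.24 and *MDM2* from -0.02 to 0.26. With the GC trend removed, *ISG15* was at -0.23 and *IFI6* at -0.04 without treated replicate 2, *MDM2* was at -0.06 without treated replicate 3, and *GBP1* was at 0 without DMSO replicate 3. The cause was not tested. Where a group held 0 counts, depth allows only a bound on the change.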

Other observations

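Among the 24 extreme genes with the GC trend removed, some were not named above. *JUP*, plakoglobin of desmosomes and adherens junctions, was at 28.2, 27.7 and 28.8 CPM in DMSO and 39.3, 45.9 and 40.1 CPM in doxorubicin (0.68, SE 0.08, edgeR adjusted p = 0.00315). *ACBD7*, an acyl-CoA-binding protein, was at 7.38, 8.01 and 9.19 CPM in DMSO and 15.7, 11.9 and 13.6 CPM in doxorubicin (0.71, SE 0.10, edgeR adjusted p = 0.00438). *AASS*, the first enzyme of lysine breakdown, rose from 7.53 to 12.7 CPM, and the small zinc-binding gene *YPEL3* from 3.82 to 5.94 CPM (edgeR adjusted p = 0.0275 and 0.0103). *YPEL3* reached 52.9 CPM at 1 µM. On the lower side, *HMGA2*, an architectural chromatin protein of mesenchymal tumours, was at 12.5, 12.3 and 12.2 CPM in DMSO and 9.49, 5.65 and 8.48 CPM in doxorubicin (-0.72, SE 0.11, edgeR adjusted p = 0.00595), and it was lower at 1 µM too. *PAPPA*, the protease of IGF-binding proteins, fell from 6.67 to 4.13 CPM and *KIF26B*, an atypical kinesin, from 5.81 to 3.20 CPM (edgeR adjusted p = 0.0255 and 0.0337). *KIF26B* rose at 1 µM, from 0.853 to 2.11 CPM.

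Gene span went with the sign of the change over the group, but not in every treated library. When genes were split into 5 equal bins by span, in the shortest bin the median log2 fold change was -0.14, and in the longest 0.07. With the GC trend removed these were -0.12 and 0.05. The median deviation from the DMSO mean in treated replicates 1, 2 and 3 was -0.06, -0.01 and -0.15 in the shortest bin. In the longest bin it was 0.11, -0.08 and 0.1, so replicate 2 did not share the trend. In these bins 3 and 52 genes passed higher and 14 and 52 lower with the GC trend removed. *POLR2A*, encoding the largest subunit of RNA polymerase II, was at 489, 525 and 432 CPM in DMSO and 858, 606 and 673 CPM in doxorubicin, and did not pass (0.56, SE 0.16, edgeR adjusted p = 0.212). Of the 13 mRNAs of the mitochondrial genome 0 passed, with a median log2 fold change of 0.52, and their median deviation was 1.07 in treated replicate 1, 0.28 in replicate 2 and 0.11 in replicate 3.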
